A study of Homo sapiens with 6 samples.

Results

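The replication-dependent histone genes encode the bulk histones H1, H2A, H2B, H3 and H4 that package newly copied DNA. Members are the numbered genes H2AC, H2BC, H3C and H4C and the linker genes H1-1 to H1-6, a rule on symbols that uses no measured value, although the class itself was taken up with earlier results of these data known. The deposited table held 52 of them among 23998 genes: 5 for H1, 14 for H2A, 14 for H2B, 8 for H3 and 11 for H4. They lie in 4 clusters, with 9 on chromosome 1 and, on chromosome 6, 23 in a proximal, 5 in a middle and 15 in a distal cluster.

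Transcripts were measured by RNA-seq of poly(A) RNA in LNCaP, an established human prostate cancer cell line that responds to androgen, with 3 libraries per group. LNCaP-ENZR cells are LNCaP cells made resistant to enzalutamide, an androgen receptor antagonist, by stepwise exposure to 5 to 50 µM of the drug for over 12 months in medium holding 10% charcoal-stripped serum, from which steroids have been removed. LNCaP-WT cells are the untreated line. For both groups the growth protocol names RPMI medium with 10% fetal bovine serum, and whether drug or stripped serum was present at harvest is not stated, so drug, serum and time in culture cannot be told apart. The labels name 1 resistant line, whose derivation the libraries do not replicate, and no label says that a group's libraries came from separate cultures, so p-values measure a spread between libraries that may be technical. Library totals ran from 35790974 to 36610862 counts in LNCaP-ENZR and from 34505712 to 35531519 in LNCaP-WT. All 10 luminal prostate markers passed the expression filter, of which 7 were lower and 3 higher in LNCaP-ENZR, with summed levels of 2377 to 2414 CPM (counts adjusted for library size) in LNCaP-ENZR and 3781 to 3856 CPM in LNCaP-WT. TRPM8 was at 0.541 ± 0.156 CPM in LNCaP-ENZR and 25.9 ± 0.303 CPM in LNCaP-WT, and ACP3 at 2.90 ± 0.431 CPM in LNCaP-ENZR and 35.6 ± 1.62 CPM in LNCaP-WT. A list of 13 leukocyte, endothelial and fibroblast markers summed to 101.3 to 135.3 CPM in LNCaP-ENZR and 108.4 to 123.4 CPM in LNCaP-WT, most of it COL1A1, and 7 of the 13 passed the expression filter, 1 of them (KDR) higher. The leukocyte genes PTPRC and CD3E held 6 and 1 counts in LNCaP-ENZR and 11 and 0 in LNCaP-WT.

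Most messenger RNAs end in a poly(A) tail. Replication-dependent histone mRNAs instead end just past a short stem-loop, which the stem-loop binding protein SLBP holds, and they accumulate during S phase and are destroyed when DNA synthesis stops. The same genes can also yield spliced or read-through RNAs that end at ordinary poly(A) signals, a form described mainly in differentiated or non-dividing cells. Poly(A) selection retains tailed RNA, so the values below do not measure the untailed histone mRNA, and tailed and carried-over untailed RNA are not separated by these counts.

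The stem-loop is shown because it marks where the untailed mRNA of these genes stops. It was found by sequence in GENCODE 29 transcripts of 24 genes, on GRCh38, and each line below reads 5′ to 3′ with the 6-base stem arms in capitals.
H2BC21, chr1:149886188-149886203, minus strand: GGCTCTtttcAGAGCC
H2BC5, chr6:26158587-26158602, plus strand: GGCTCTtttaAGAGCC
H2AC6, chr6:26124669-26124684, plus strand: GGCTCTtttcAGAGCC
H4C8, chr6:26285131-26285146, minus strand: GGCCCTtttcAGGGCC
The H2A and H2B stems shown are the same, the loop of H2BC5 differs from the others, and so does the stem of H4C8. An annotated transcript runs 1729 bases past the stem-loop in H2BC21, 1128 in H2AC6, 1655 in H4C8 and 39 in H2BC5. A poly(A) signal (AATAAA or ATTAAA starting 10 to 40 bases before an annotated end) was found for 18 of the 52 genes. The motif was not required to lie past the stem-loop, and the transcript of H4C11, 1 of the 18, ends 6 bases after it. Many models of genes without a signal hold the coding sequence alone, so a missing signal says little.

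Transcripts of the replication-dependent histone genes were lower in the enzalutamide-resistant cells for most genes that could be tested, among them 9 of 10 tested H2B genes. Of the 52 genes, 28 passed the filter on low expression (10 counts, or 0.2804 CPM, in 3 libraries). By edgeR's quasi-likelihood test, 18 of these 28 were lower in LNCaP-ENZR, 2 were higher and 8 did not pass an adjusted p of 0.05. Over all 15422 tested genes 69.2% were called, 34.8% as lower and 34.4% as higher. With at least a 2-fold change, 14 histone genes were lower and 2 higher, where the shares over all tested genes were 11.9% lower and 9.74% higher. The libraries of the groups did not overlap for 21 histone genes that were lower and 2 that were higher, against 36.4% and 35.8% of all tested genes. The median log2 fold change of the 28 was -1.16, with a range from -2.67 to 3.21, while that of all tested genes was -0.01.

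A gene that is low in 1 group can pass the filter only through the group in which it is high. This held for 7 histone genes that passed in LNCaP-WT alone, of which 6 were called lower: H1-4, H2AC15, H2AC18, H2BC7, H4C5 and H4C9. The remaining gene, H2AC13, did not pass the adjusted p. It also held for H2AC20 and H3C1, the 2 genes called higher, which passed in LNCaP-ENZR alone. The calls of these genes are not independent of the filter. Among the 18 that passed in both groups, 12 were lower and 6 did not pass, with a median of -0.86. Most histone gene models are short. Of 958 tested genes with a model of at most 1000 bp, which include the short histone genes, 358 were higher and 192 lower, with a median of 0.22. The part of gene length in the histone result was not tested.

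**Figure D1:**
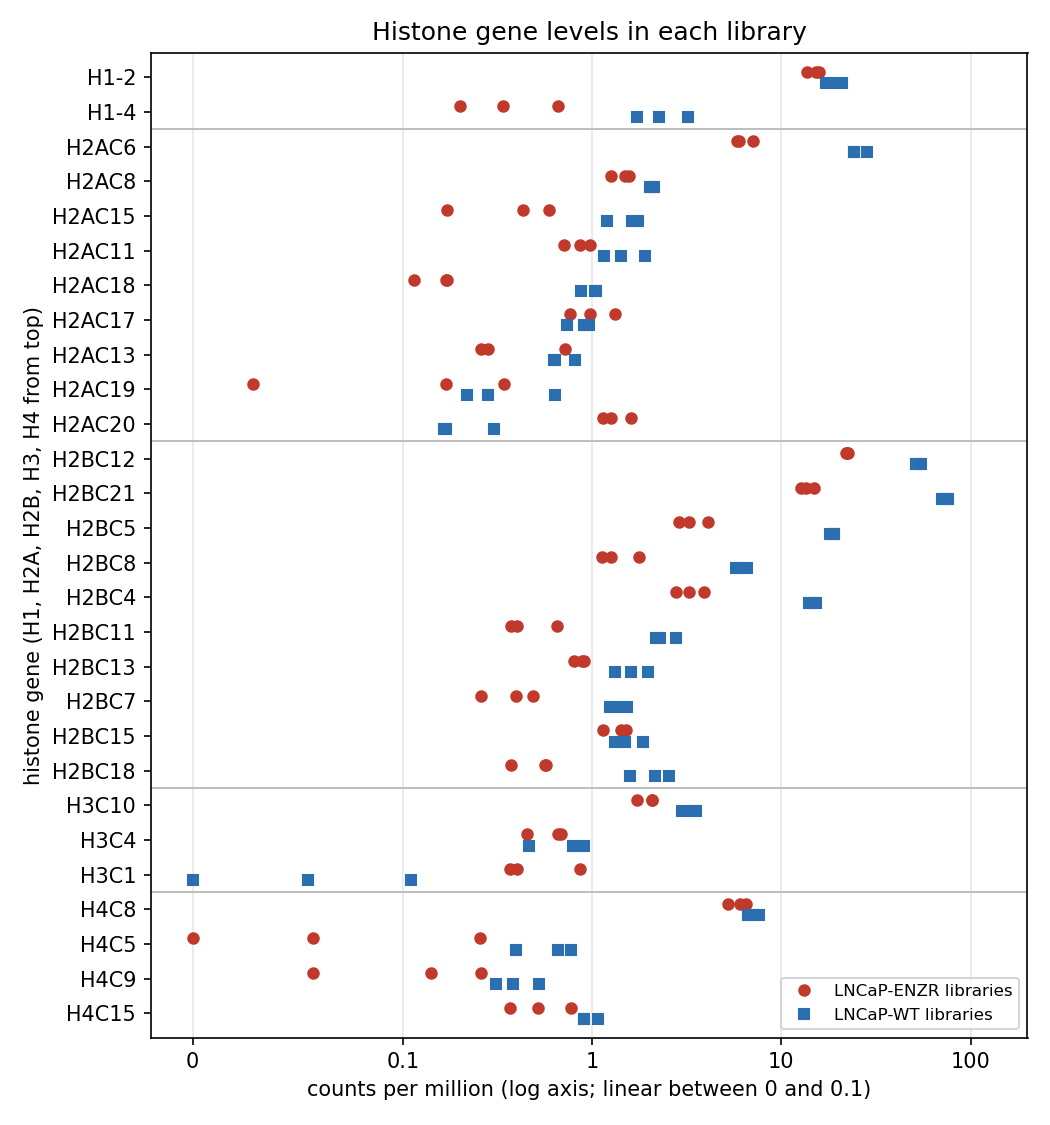
Level of each of the 28 tested histone genes in every library, in CPM on a log axis that is linear below 0.1, with LNCaP-ENZR libraries as circles and LNCaP-WT libraries as squares. H2BC12 and H2BC21 hold the most counts, and H2AC20 and H3C1 are the genes whose LNCaP-ENZR libraries all lie above the LNCaP-WT libraries.

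Summed over the 52 genes, the libraries held 2981, 3061 and 3014 counts in LNCaP-ENZR, against 8609, 9019 and 9045 in LNCaP-WT. That is 86.1 ± 0.673 CPM in LNCaP-ENZR and 246.2 ± 3.47 CPM in LNCaP-WT (SD, n = 3 each), 2.86-fold lower, and 0.00835% against 0.0254% of all counts. Fewer cells making these RNAs and less RNA per cell cannot be told apart in bulk libraries. The classes contributed unevenly. The H2B genes summed to 47.9 ± 1.52 CPM in LNCaP-ENZR and 176.1 ± 1.49 CPM in LNCaP-WT, 3.68-fold lower. H2A sums were 2.77-fold lower, at 12.3 ± 0.890 CPM in LNCaP-ENZR and 34.1 ± 3.31 CPM in LNCaP-WT. The H1, H3 and H4 sums were 1.40-fold, 1.44-fold and 1.35-fold lower. H2B genes took 55.6% of histone counts in LNCaP-ENZR and 71.5% in LNCaP-WT. Sums carry no test here, because the class was taken up with results of these data known.

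The sums rest on few genes. H2BC21, H2BC12, H1-2, H2AC6 and H2BC5 held 70.3% of the counts in LNCaP-ENZR and 77.4% in LNCaP-WT, with 60.5 ± 1.05 CPM in LNCaP-ENZR and 190.5 ± 3.99 CPM in LNCaP-WT. The other 47 genes together were 2.18-fold lower, at 25.6 ± 0.860 CPM in LNCaP-ENZR and 55.7 ± 2.56 CPM in LNCaP-WT.

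H2B, the partner of H2A in the nucleosome, had 14 genes in the table. Of these 10 were tested, 9 were lower and H2BC15 did not pass. The median log2 fold change of the 10 was -2.09. H2BC21 lies in the chromosome 1 cluster, at 149884459 to 149886682 on GRCh38, and has a gene model of 2224 bp, long for a histone. It had 519, 476 and 446 counts in LNCaP-ENZR, against 2635, 2790 and 2578 in LNCaP-WT. Every resistant library was far below every parental one, with 13.7 ± 1.06 CPM in LNCaP-ENZR and 73.9 ± 2.68 CPM in LNCaP-WT (SD, n = 3). Its log2 fold change was -2.43 ± 0.077 SE (edgeR adjusted p = 1.8e-15).

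H2BC12, in the middle cluster on chromosome 6 (27138293 to 27146858), had the most histone counts of the resistant cells, with 775, 795 and 767 in LNCaP-ENZR and 1828, 1989 and 1957 in LNCaP-WT. The groups were well apart and tight, at a log2 fold change of -1.26 ± 0.070 SE (edgeR adjusted p = 6e-12). Per length, it was the highest of the 52 genes in both groups, at 24.3 ± 0.168 FPKM (counts per kilobase of gene model, scaled by library total) in LNCaP-ENZR and 61.9 ± 1.87 FPKM in LNCaP-WT. H2BC5 had 114, 145 and 100 counts in LNCaP-ENZR, against 675, 658 and 690 in LNCaP-WT, a log2 fold change of -2.45 ± 0.127 SE (edgeR adjusted p = 2.4e-12). H2BC4 had 136, 115 and 97 counts in LNCaP-ENZR and 498, 532 and 553 in LNCaP-WT, a log2 fold change of -2.14 ± 0.133 SE (edgeR adjusted p = 3.7e-11). None of these 3 genes had overlapping groups. Their models reach beyond the classical unspliced gene: the RefSeq spans are 8566 bp for H2BC12, 13229 bp for H2BC5 and 10757 bp for H2BC4, while the counted models hold 887, 1320 and 2426 bp.

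The remaining H2B genes were at lower levels. H2BC8 had 44, 40 and 62 counts in LNCaP-ENZR and 234, 210 and 219 in LNCaP-WT (log2 fold change -2.14 ± 0.198 SE). H2BC11 had 14, 23 and 13 counts in LNCaP-ENZR and 99, 83 and 79 in LNCaP-WT (log2 fold change -2.34 ± 0.307 SE). Both had short models of ordinary histone size, and both passed (edgeR adjusted p = 1.3e-08 for H2BC8 and 1.5e-06 for H2BC11). H2BC18 and H2BC7 were lower, with log2 fold changes of -2.04 ± 0.319 and -1.85 ± 0.366 SE (edgeR adjusted p = 1.3e-05 and 1.8e-04). Of these, H2BC7 passed the filter through LNCaP-WT alone. H2BC13, at -0.91 ± 0.292 (edgeR adjusted p = 0.0098), lost its call without the first LNCaP-WT library (adjusted p = 0.065). H2BC15 had 40, 50 and 53 counts in LNCaP-ENZR and 66, 48 and 54 in LNCaP-WT, whose libraries overlap (log2 fold change -0.19 ± 0.272 SE, adjusted p = 0.54).

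**Figure D2:**
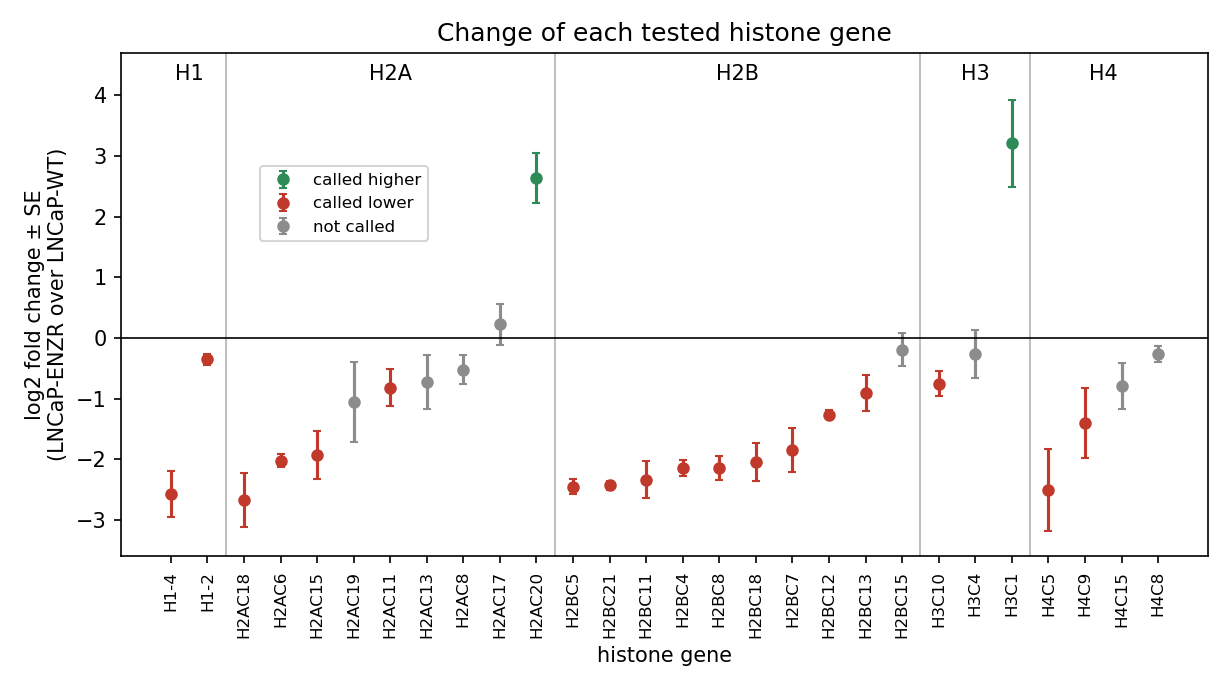
Log2 fold change of each of the 28 tested histone genes, LNCaP-ENZR over LNCaP-WT, with its standard error derived from the edgeR F statistic, grouped by histone class and coloured by whether the gene was called. The H2B genes sit below 0, with 9 of 10 called lower, while H2A and H3 each hold 1 gene called higher.

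Among the 14 H2A genes, 9 were tested and they were mixed: 4 lower, 1 higher and 4 not passed. H2AC6 (chromosome 6, 26124172 to 26124690) held most H2A counts, with 208, 207 and 246 in LNCaP-ENZR against 858, 885 and 1035 in LNCaP-WT. It was 4.08-fold lower (log2 fold change -2.03 ± 0.108 SE, edgeR adjusted p = 3.6e-12), and its groups did not overlap. Its model holds 519 bp, but a GENCODE transcript of 1668 bp continues past the stem-loop, which the counted length leaves out. H2AC15 (-1.93 ± 0.395, adjusted p = 2.6e-04) and H2AC11 (-0.82 ± 0.310, adjusted p = 0.025) were also lower. Of these, H2AC15 passed the filter through LNCaP-WT alone. The H2AC11 call was lost without the second LNCaP-ENZR library (adjusted p = 0.084), without the third LNCaP-WT library (0.15) and by the DESeq2 Wald test (0.055).

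H2AC18 and its neighbour H2AC19 cannot be told apart by most reads, since 100% of the 150-base windows of H2AC18 and 96.4% of those of H2AC19 occur in another histone gene. H2AC18 had 4, 6 and 6 counts in LNCaP-ENZR and 31, 38 and 38 in LNCaP-WT, a log2 fold change of -2.67 ± 0.444 SE (edgeR adjusted p = 2.7e-05). It passed the filter through LNCaP-WT alone. H2AC19, at -1.05 ± 0.655, did not pass (adjusted p = 0.16) but did without the third LNCaP-ENZR library (adjusted p = 0.037). H2AC8 had 55, 53 and 44 counts in LNCaP-ENZR and 74, 74 and 77 in LNCaP-WT, which do not overlap, yet did not pass (log2 fold change -0.52 ± 0.242 SE, adjusted p = 0.062). With scaling by library totals alone H2AC8 passed (adjusted p = 0.031). H2AC13 (-0.72 ± 0.447, adjusted p = 0.16) passed without the first LNCaP-ENZR library (adjusted p = 0.031), and H2AC17 was at 0.23 ± 0.337 (adjusted p = 0.56). Of the 150-base windows, 51.7% for H2AC13 and 80.7% for H2AC17 also occur in another histone gene.

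The linker histone H1, which binds DNA between nucleosomes, had 2 tested genes of 5, both lower. Of these, H1-4 passed the filter through LNCaP-WT alone. H1-2 had 480, 559 and 529 counts in LNCaP-ENZR and 615, 765 and 684 in LNCaP-WT. The groups do not overlap, but the change was small, at -0.35 ± 0.097 SE on the log2 scale (edgeR adjusted p = 0.0033). H1-4 had 23, 12 and 7 counts in LNCaP-ENZR against 80, 63 and 117 in LNCaP-WT, a log2 fold change of -2.58 ± 0.378 SE (edgeR adjusted p = 7.2e-06).

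H3 and H4 form the central tetramer of the nucleosome. H3C10 had 72, 61 and 72 counts in LNCaP-ENZR and 119, 129 and 108 in LNCaP-WT, without overlap, and was lower (log2 fold change -0.75 ± 0.202 SE, edgeR adjusted p = 0.0027). H3C4 did not pass (-0.27 ± 0.395, adjusted p = 0.56). H4C8, the H4 gene with the most counts, had 182, 214 and 228 in LNCaP-ENZR and 248, 280 and 243 in LNCaP-WT. These do not overlap, but the change of -0.26 ± 0.136 SE did not pass (adjusted p = 0.094), while it did with library totals alone (adjusted p = 0.03). H4C15 (-0.79 ± 0.377, adjusted p = 0.069) passed without the first LNCaP-ENZR library (adjusted p = 0.038) and with library totals alone (0.045). H4C15 shares 97.0% of its 150-base windows with another histone gene. H4C5 was lower (-2.50 ± 0.678, adjusted p = 0.0031) on 11 counts in LNCaP-ENZR and 66 in LNCaP-WT. Like H4C9, it passed the filter through LNCaP-WT alone. H4C9 was lower at -1.40 ± 0.578 (adjusted p = 0.039), and its call was lost without any 1 of 4 libraries, the first and second of LNCaP-ENZR and the second and the third of LNCaP-WT (adjusted p = 0.17, 0.099, 0.068 and 0.15), by the DESeq2 Wald test (0.12) and with no filter (0.083).

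The exceptions in the upward direction were H2AC20 and H3C1, whose values in each library are given because of their direction. H2AC20 (chromosome 1, 149886918 to 149887411) had 40, 57 and 44 counts in LNCaP-ENZR, against 6, 6 and 11 in LNCaP-WT. It was higher in all 3 resistant libraries, with a log2 fold change of 2.64 ± 0.412 SE (edgeR adjusted p = 1.3e-05). H3C1, in the proximal cluster on chromosome 6, had 30, 13 and 14 counts in LNCaP-ENZR and 0, 2 and 4 in LNCaP-WT. Its ratio of scaled counts was 9.78, with a 95% exact binomial interval from 4.23 to 27.8 that covers counting error only (edgeR adjusted p = 5.7e-04). Neither gene shares a 150-base window with another histone gene.

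The 24 genes below the filter had mean counts of 0.167 to 8.33 per library and no test. Together they held 38, 37 and 58 counts in LNCaP-ENZR and 84, 63 and 81 in LNCaP-WT. The 95% exact binomial interval of the ratio lay below 1 for 7 of them, above 1 for 2 and included 1 for 15. H3C13 held 6 counts in LNCaP-ENZR and 44 in LNCaP-WT, a ratio of 0.140 with an interval from 0.0489 to 0.331. These intervals cover counting error only, and the spread between libraries is not in them. H4C3 had 4, 12 and 7 counts in LNCaP-ENZR and 0, 1 and 5 in LNCaP-WT, a ratio of 3.95 (interval 1.56 to 11.9). H1-5 had 3, 1 and 11 counts in LNCaP-ENZR and 0, 2 and 0 in LNCaP-WT (ratio 7.72, interval 1.80 to 69.6). The groups overlap for both of these genes, and most counts of H1-5 come from the third LNCaP-ENZR library. For the 15 genes whose interval included 1 a difference was not detectable at this depth, and 11 of the 24 had 10 counts or fewer over the 6 libraries.

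Per length, the order of the main transcripts differed between the groups. In LNCaP-ENZR, H2BC12 was followed by H1-2 (19.8 ± 1.39 FPKM), H4C8 (14.1 ± 1.63), H2AC6 (11.8 ± 1.30) and H2BC21 (5.97 ± 0.449). In LNCaP-WT, H2BC12 was followed by H2AC6 (50.9 ± 5.09 FPKM), H2BC21 (34.2 ± 1.16), H1-2 (26.8 ± 2.54) and H4C8 (17.9 ± 1.22). The intervals of ± 1 SD of neighbours in these orders do not meet, except for H4C8 and H2AC6 in LNCaP-ENZR.

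The genes were then grouped by features that their symbols do not carry. Of 8 core histone genes with a gene model of 887 bp or more, 7 were tested, 5 were lower and 2 did not pass, and their median log2 fold change was -2.04. Their sum was 44.3 ± 1.97 CPM in LNCaP-ENZR and 164.3 ± 2.06 CPM in LNCaP-WT, 3.71-fold lower. Of 39 core genes with a model of 387 to 542 bp, 19 were tested, 11 were lower, 2 higher and 6 did not pass, with a median of -0.91, and their sum was 2.29-fold lower. Genes with a poly(A) signal motif near an annotated end had 10 lower and 4 not passed of 14 tested, with a median of -2.04. Those without one had 8 lower, 2 higher and 4 not passed of 14 tested, with a median of -0.82. These groupings overlap, since 5 of the 8 long models are H2B genes.

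By cluster, the summed level was 4.78-fold lower on chromosome 1, where H2BC21 held most counts, 2.54-fold in the proximal, 2.43-fold in the middle and 1.52-fold in the distal cluster of chromosome 6. The middle sum is nearly that of H2BC12 alone, itself 2.40-fold lower. In LNCaP-ENZR this gene held 775, 795 and 767 of 821, 852 and 823 counts, and in LNCaP-WT 1828, 1989 and 1957 of 1982, 2139 and 2124. Without H2BC21, the other 8 genes of the chromosome 1 cluster summed to 2.84 ± 0.211 CPM in LNCaP-ENZR and 5.24 ± 0.793 CPM in LNCaP-WT, 1.85-fold lower. Of the 18 tested genes that encode no histone and lie within 500 kb of the chromosome 1 cluster, 6 were higher, 5 lower and 7 did not pass, and their median log2 fold change was -0.00092. Such neighbours had 5 higher and 3 lower of 12 near the proximal cluster, 1 higher and 2 lower of 8 near the middle one, and 4 higher and 4 lower of 15 near the distal one, with medians of -0.08, -0.11 and 0.09. These sets share genes, since 6 of the 8 near the middle cluster are also counted for the proximal or the distal one. Over all tested genes 34.4% were higher and 34.8% lower.

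Histone genes often lie head to head, sharing the promoter DNA between them. There were 10 such pairs, 7 with both genes tested. Windows of RefSeq (GRCh38.p14) from 250 bases before to 50 after the start of transcription were available for 47 of the 52 genes. The windows of H2BC21 and H2BC4 are shown because the partners of these 2 genes went opposite ways, and capitals mark the TATAA element, the CCAAT box and the octamer ATTTGCAT on either strand.
H2BC21, chr1:149886633-149886932, minus strand: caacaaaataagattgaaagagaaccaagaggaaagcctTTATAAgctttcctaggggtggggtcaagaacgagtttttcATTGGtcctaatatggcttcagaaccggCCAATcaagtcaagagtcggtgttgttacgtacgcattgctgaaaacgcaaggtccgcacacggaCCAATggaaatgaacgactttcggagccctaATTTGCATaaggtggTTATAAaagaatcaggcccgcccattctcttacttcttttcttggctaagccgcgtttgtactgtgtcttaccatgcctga
H2BC4, chr6:26123877-26124176, minus strand: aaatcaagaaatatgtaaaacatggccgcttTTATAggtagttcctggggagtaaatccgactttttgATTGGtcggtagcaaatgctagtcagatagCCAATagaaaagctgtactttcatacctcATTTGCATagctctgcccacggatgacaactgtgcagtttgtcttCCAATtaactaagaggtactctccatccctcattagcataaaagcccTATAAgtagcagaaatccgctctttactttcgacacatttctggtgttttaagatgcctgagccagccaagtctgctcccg
TATAA, the core of the TATA box, was in 93.6% of the 47 windows and in 20.4% of all 35116 promoter windows. CCAAT was in 83.0% against 34.6%. ATTTGCAT, the octamer known from H2B promoters as the element bound by POU2F1 (OCT1), was in 44.7% against 1.77%, with 11 of 14 H2B and 9 of 13 H2A windows. No marked motif overlapped a different one in the 47 windows, and windows of head-to-head partners overlap, so they are not independent. Genes with the octamer had 9 lower, 1 higher and 3 not passed of 13 tested, with a median of -1.85, and those without it had 9 lower, 1 higher and 5 not passed of 15 tested, with a median of -0.91.

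H2BC21 and H2AC20 start 235 bases apart and changed in opposite directions. H2BC21 held 1441 counts in the LNCaP-ENZR libraries and 8003 in LNCaP-WT, whereas H2AC20 held 141 in LNCaP-ENZR and 23 in LNCaP-WT. H2BC4 and H2AC6, with 245 bases between them, were both lower and by a like amount (-2.14 ± 0.133 and -2.03 ± 0.108 on the log2 scale). H2BC11 and H2AC11, 247 bases apart, were both lower too. In each of the other 4 tested pairs (H2BC8 with H2AC8, H2BC13 with H2AC13, H2BC7 with H3C4, H2BC15 with H2AC15) 1 gene was lower and the other did not pass. The difference between partners was not tested.

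**Figure D3:**
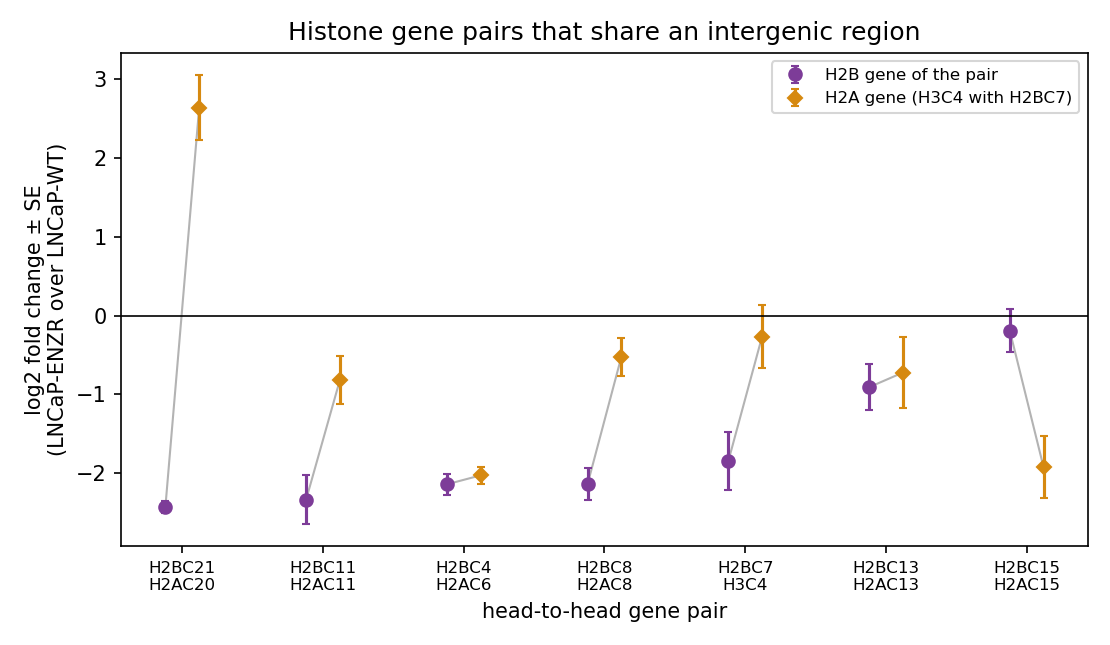
Log2 fold change with its standard error, LNCaP-ENZR over LNCaP-WT, for the 7 head-to-head pairs with both genes tested, with the H2B gene as a circle and its partner as a diamond joined by a line. The pair H2BC21 and H2AC20 crosses 0, and the pair H2BC4 and H2AC6 lies level near -2.

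Histone variants, which are not tied to S phase in the same way and mostly have ordinary tailed mRNAs, were mostly higher. Of 17 variant genes listed, 14 were in the table and 11 tested: 9 were higher, 1 lower and 1 did not pass, and their median log2 fold change was 0.32. The higher calls numbered 7 with library totals alone and 6 by limma on either FPKM scale. H2AX, a variant that is phosphorylated at DNA breaks and whose gene yields both tailed and stem-loop mRNA, was at 107.4 ± 7.04 CPM in LNCaP-ENZR and 43.0 ± 2.0 CPM in LNCaP-WT (SD, n = 3). Its log2 fold change was 1.32 ± 0.066 SE (edgeR adjusted p = 1.5e-12). CENPA, the H3 variant of centromeres, was at 22.6 ± 1.43 CPM in LNCaP-ENZR and 7.47 ± 0.379 CPM in LNCaP-WT (adjusted p = 3e-11). MACROH2A2 was 5.30-fold higher and the linker variant H1-10 2.14-fold higher. The H3.3 genes H3-3A (0.32, adjusted p = 2.5e-05) and H3-3B (0.15, adjusted p = 0.022) were slightly higher on the log2 scale. H2AZ1 did not pass (-0.12, adjusted p = 0.057).

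All 44 genes of a list for S phase and DNA replication were tested and were higher in LNCaP-ENZR, with a median log2 fold change of 1.27. TK1, the S-phase thymidine kinase, was at 259.8 ± 13.0 CPM in LNCaP-ENZR and 56.0 ± 2.27 CPM in LNCaP-WT (log2 fold change 2.21 ± 0.059 SE). GINS3 of the replicative helicase was 5.21-fold higher, POLE2 of DNA polymerase epsilon 4.40-fold and UHRF1, which maintains DNA methylation at the fork, 4.31-fold.

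A list for synthesis and 3′ end processing of histone mRNA had 17 of 24 tested genes higher, 2 lower and 5 not passed. It includes genes that also serve other RNAs. For this list and the others, the shares over all tested genes were 34.4% higher and 34.8% lower. LSM11 (0.78) and ZNF473 (0.32, with overlapping libraries) were higher on the log2 scale. CASP8AP2, LSM10, POU2F1, HINFP and MIF4GD did not pass. SLBP, which also stands in the S-phase list, was at 102.9 ± 2.39 CPM in LNCaP-ENZR and 57.6 ± 2.52 CPM in LNCaP-WT (log2 fold change 0.84 ± 0.060 SE, edgeR adjusted p = 2.8e-10). The Sm proteins SNRPF (1.21), SNRPG (1.11) and SNRPB (1.09), which also serve splicing, and CDK2 (0.93), the kinase that with cyclin E switches on histone transcription, were higher on the log2 scale. The 2 lower genes were NPAT, the coactivator of histone transcription that CDK2 acts on, with 23.4 ± 2.76 CPM in LNCaP-ENZR and 32.9 ± 2.08 CPM in LNCaP-WT (-0.49 ± 0.090, adjusted p = 7.3e-05), and CCNE2 (-0.76 ± 0.12). CCNE1, the other cyclin E, was higher (0.28 ± 0.082, adjusted p = 0.0049).

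Among 24 genes of histone mRNA decay 13 were higher, 5 lower and 6 did not pass, and their median log2 fold change was 0.36. LSM4 (1.34) and LSM2 (1.31), subunits of the ring that binds the tail added to histone mRNA for decay, DIS3L2 (0.93), a nuclease of uridine-tailed RNA, and PNRC1 (-1.07) changed most among those with a mean of at least 100 counts. Of 22 genes for cleavage and polyadenylation 14 were higher, 5 lower and 3 did not pass, with a median of 0.35. The tail-binding proteins PABPC1, at 2271 ± 39.1 CPM in LNCaP-ENZR and 982.2 ± 49.5 CPM in LNCaP-WT, PABPC4 (0.92), ZC3H14 (0.69) and PABPN1 (0.80) were higher. Histone chaperones and assembly factors had 16 higher, 3 lower and 9 not passed of 28, with a median of 0.26. ASF1B (1.49) and CHAF1A (1.45), which hand new H3 and H4 to replicated DNA, and the centromeric chaperone HJURP (1.17) were higher, while ATRX (-1.17), which places H3.3 in repeats, was lower.

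**Figure D4:**
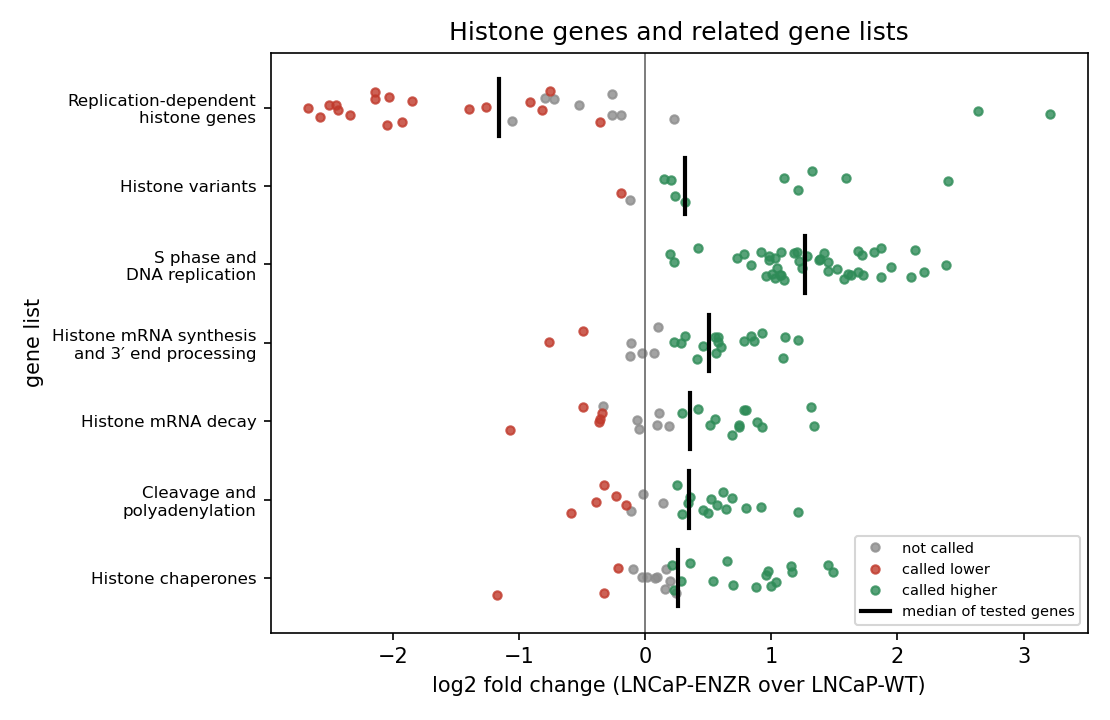
Log2 fold change, LNCaP-ENZR over LNCaP-WT, of each tested gene in 7 lists, coloured by whether it was called, with the median of each list as a black bar. The replication-dependent histone genes have a median of -1.16, the S-phase genes 1.27 and the other lists between 0.26 and 0.51.

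A further list of RNAs that lack a poly(A) tail or stay in the nucleus was set beside the histone genes. Of its 29 genes, MALAT1 and NEAT1 were analysed here and the others were not, so the list as a whole was not assessed. Both genes were lower, MALAT1 at 545.3 ± 41.8 CPM in LNCaP-ENZR and 1782 ± 91.8 CPM in LNCaP-WT, and NEAT1 at 1599 ± 7.66 CPM in LNCaP-ENZR and 3448 ± 107.1 CPM in LNCaP-WT. Most tested histone genes were lower too, and so were 34.8% of all tested genes. The part of RNA selection or RNA quality in the histone result was not tested.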

How the data were processed

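Per the labels' protocols, 6 poly(A) RNA libraries gave paired reads of 150 bp. Tools listed in the submitters' processing notes are fastp, HISAT2 and HTSeq, with GRCh38 as the build. Not given in the sources used here are the annotation release, the strand setting and the treatment of reads with several matches. The deposited count table holds the authors' raw counts per gene. The deposited FPKM table holds those counts per kilobase, scaled by library total, and the gene length it implies was the same in all libraries, within 0.1%, for 23998 genes.

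The whole table of counts went into edgeR 4.0.16 under R 4.3.3 (quasi-likelihood F test, robust, two-sided, TMM scaling, default filter), with Benjamini-Hochberg adjustment over 15422 genes and a threshold of 0.05. The biological coefficient of variation was 7.41%. Standard errors (SE) were derived from the F statistic, as the absolute log2 fold change divided by the square root of F. Levels are CPM over TMM-scaled totals. Every tested histone gene is named, with all library counts where the mean was at least 50, and lists name up to 4 called genes, those of largest change with 100 or more counts on average, plus genes of known role. Some genes that this rule or the lists name are not reported here. Counts per library for H2AC20, H3C1 and H2AC18 were added after their values were seen. The genes and lists were chosen with earlier results of these data known. Stem-loops and poly(A) signals were read from GENCODE 29, promoters from RefSeq. The fit was also run on simulated counts in which few genes changed and all genes had the same dispersion, unlike these data. That run checked the code and not the calls given here. Alternatives were edgeR with its own version of the median-ratio scaling that DESeq2 uses, and the DESeq2 1.42.0 Wald test. Others were library totals, no filter, a stricter filter (a mean of 50 counts and 1 CPM in 3 libraries), limma 3.58.1 on log2(FPKM + 0.1) and log2(FPKM + 1), a block for replicate number, and leaving out each library.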

Additional observations from a re-analysis of the deposited data

How the results depend on the processing

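Under 14 alternatives, 20 of the 28 tested histone genes kept their direction and their side of the threshold wherever they could be tested, and of 377 values over all 28, 352 did so, 10 lost a call, 15 gained one and 0 reversed. The count of lower histone genes was 17 to 21 with 1 library left out, 21 with library totals alone, 24 of 37 by limma on either FPKM scale, 20 of 52 with no filter and 19 by the DESeq2 Wald test, and 2 or 3 were higher. The stricter filter tested 13 histone genes, of which 11 were lower and 0 higher, since it removed H2AC20 and H3C1. Limma also called H2AC8, H2AC13, H4C8 and H4C15. With library totals alone the summed ratio was 0.329, against 0.350, the median of all genes shifted by -0.09, and 4643 genes were higher and 6111 lower. Variants called higher numbered 6 to 9 over the alternatives. Those called lower numbered 2 under library totals, limma at either pseudocount, the replicate block and the stricter filter, and 0 to 2 with 1 library left out. Of the leukocyte, endothelial and fibroblast markers, 0 were higher by limma at either pseudocount or with the stricter filter, and 0 to 1 were lower with 1 library left out.

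Replicate numbers did not pair the libraries: deviations of same-numbered libraries correlated at -0.01, 0.03 and 0.08. With the replicate block 18 histone genes were lower and 2 higher.

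Depth limits the histone genes below the filter, for which counts of 10 or fewer over 6 libraries show no difference short of a large one. Reads from near-identical genes (12 of the 52 share a 150-base window) are shared out in a way the sources do not state. Gene models that stop near the stem-loop can miss longer tailed transcripts, and 20 of the 52 genes have a GENCODE transcript longer than the counted model. The excess is small for some, as in H2AC13 (503 against 495 bp), and large for others, as in H2BC15 (4137 against 542 bp).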

Other observations

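A set of 5 histone genes with other symbol forms lay outside the choice by name. H2AW had 140, 122 and 119 counts in LNCaP-ENZR and 177, 218 and 215 in LNCaP-WT, without overlap, and was lower (log2 fold change -0.64 ± 0.159 SE, edgeR adjusted p = 0.0016). H2BU1 had 7, 11 and 7 counts in LNCaP-ENZR and 20, 12 and 15 in LNCaP-WT and did not pass (adjusted p = 0.13). H3-7 had no counts in the LNCaP-ENZR libraries and 9, 9 and 5 in LNCaP-WT, too few to test. H4-16 had 4, 2 and 2 counts in LNCaP-ENZR and 2, 1 and 0 in LNCaP-WT, and H2BK1 had 5, 4 and 8 counts in LNCaP-ENZR and 12, 2 and 3 in LNCaP-WT, also too few to test. These genes were picked out after their values were seen.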
